A study of Mus musculus with 36 samples.

Results

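The nuclear genes of oxidative phosphorylation were described across sorted blood stem and progenitor cells of mice with and without leukaemia. Members were the protein-coding genes whose symbol starts with Ndufa, Ndufb, Ndufc, Ndufs or Ndufv and a number, or with Uqcr, Cox4 to Cox8 or Atp5, together with Sdha, Sdhb, Sdhc and Sdhd. Assembly factors of complex I (Ndufaf), the muscle gene Cox6a2 and pseudogenes were left out by the same rule. It found 85 of the 55414 gene identifiers in the tables, and used no measured value. They were 35 genes of complex I, 4 of complex II, 8 of complex III, 19 of complex IV and 19 of complex V. Ndufa4 and Ndufa4l2 were counted with complex IV, where the Ndufa4 protein is known to sit.

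Gene expression had been measured in 36 libraries, 4 in each of 9 groups. All mice carried Kmt2a-AFF1, a fusion gene of infant leukaemia. The 12 leukaemia mice had terminal leukaemia and also overexpressed a microRNA, given as miR-130b with the samples and as miR-130a in the design text. Each of them gave a bone marrow (BM) and a central nervous system (CNS) library of a single cell type. The 4 control mice overexpressed miR-scramble in place of the microRNA, were not leukaemic, and gave BM libraries of all 3 cell types. The gates were Lin- c-Kit+ Sca-1+ Flt3- for HSC/MPP, which holds stem cells and early progenitors of all lineages, Lin- c-Kit+ Sca-1+ Flt3+ for LMPP (lymphoid-primed progenitors) and Lin- c-Kit+ Sca-1- for LK/CLP (later progenitors), called HSC, LMPP and LK below. The labels give no age, and nothing on the promoter that drives the fusion or the microRNA. Controls and leukaemia mice are in separate tables, so disease, microRNA and table cannot be told apart.

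Oxidative phosphorylation takes place in the inner membrane of mitochondria. Complex I oxidises NADH and complex II oxidises succinate, complex III passes the electrons to cytochrome c, complex IV hands them to oxygen, and complex V (ATP synthase) uses the resulting proton gradient to make ATP. A few core subunits are encoded in mitochondrial DNA and all others in the nucleus, so both sets of transcripts are needed for every complex except complex II, which is wholly nuclear. Blood stem cells in their resting state are known for relying little on this pathway and their dividing progeny for using it more.

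The members lie on 19 chromosomes, X included, with 3 members on X. Promoters were compared because most members moved together in the comparisons that follow. Of 85 members, 68 had an entry in RefSeq's promoter table of GRCm38.p6, with 73 promoters of 300 bases each. The NRF1 core TGCGCA, searched on both strands, was in 19 of these 73 (26.0%) and in 7.76% of all 32851 promoters of that length. The GABP and ETS core CCGGAAG was in 17 (23.3%, beside 8.86% of all promoters), and the YY1 motif AAGATGGC in 10 (13.7%, beside 2.75%). The SP1 motif GGGCGG was in 29 (39.7%, beside 35.7%) and TATAAA in 9 (12.3%, beside 13.6%). No searched motif contains another, and a match shows only that the letters are there. The 250 bases upstream of the start of a member of each complex follow, 5′ to 3′ on the gene's strand, with the NRF1, GABP/ETS and SP1 letters in capitals. Ndufa6 (complex I) is at chr15:82354292-82354541 on the minus strand, Sdhd (complex II) at chr9:50603850-50604099 on the minus strand, and Uqcr11 (complex III) at chr10:80406822-80407071 on the minus strand. Cox5b (complex IV) is at chr1:36691237-36691486 on the plus strand and Atp5f1 (complex V, now Atp5pb) at chr3:105959264-105959513 on the minus strand. These 5 are shown as members described below whose sequence holds a motif, Cox5b being chosen after its values were seen.
Ndufa6: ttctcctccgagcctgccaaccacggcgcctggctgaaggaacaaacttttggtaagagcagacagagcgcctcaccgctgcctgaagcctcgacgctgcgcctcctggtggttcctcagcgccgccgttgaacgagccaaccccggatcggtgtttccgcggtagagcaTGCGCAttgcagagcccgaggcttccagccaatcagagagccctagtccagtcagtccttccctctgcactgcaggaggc
Sdhd: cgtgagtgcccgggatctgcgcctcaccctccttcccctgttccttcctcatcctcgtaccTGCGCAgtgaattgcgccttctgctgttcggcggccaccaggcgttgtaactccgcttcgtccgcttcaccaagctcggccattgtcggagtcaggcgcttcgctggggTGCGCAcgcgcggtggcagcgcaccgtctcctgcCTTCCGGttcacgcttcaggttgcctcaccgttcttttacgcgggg
Uqcr11: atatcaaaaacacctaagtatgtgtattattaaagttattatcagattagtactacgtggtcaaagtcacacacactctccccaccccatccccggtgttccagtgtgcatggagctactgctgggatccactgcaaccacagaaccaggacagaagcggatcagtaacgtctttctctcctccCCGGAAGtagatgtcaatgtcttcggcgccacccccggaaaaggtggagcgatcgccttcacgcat
Cox5b: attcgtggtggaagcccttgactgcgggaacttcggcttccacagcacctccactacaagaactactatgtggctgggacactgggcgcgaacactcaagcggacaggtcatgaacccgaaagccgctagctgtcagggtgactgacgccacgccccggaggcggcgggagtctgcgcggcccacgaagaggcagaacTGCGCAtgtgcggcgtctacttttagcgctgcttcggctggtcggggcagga
Atp5f1: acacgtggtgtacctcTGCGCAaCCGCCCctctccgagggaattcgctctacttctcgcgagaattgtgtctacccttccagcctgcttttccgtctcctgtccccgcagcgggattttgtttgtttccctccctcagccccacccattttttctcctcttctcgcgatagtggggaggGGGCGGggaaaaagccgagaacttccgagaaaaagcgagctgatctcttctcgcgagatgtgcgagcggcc
The Ndufa6 and Cox5b sequences hold the NRF1 core, Uqcr11 holds the GABP/ETS core, Sdhd holds both, and Atp5f1 holds the NRF1 core and SP1 motifs.

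Sequencing depth was 1.91 to 30.4 M counts a library (M for mega), lowest in leukaemia BM LMPP replicate 3. Counts on sensory receptor genes, taken as not expressed in these cells, set a uniform background along the genome for each library. Among controls, this background took 21.7 to 27.7% of an HSC library, 14.2 to 27.0% of an LMPP library and 6.51 to 12.4% of an LK library. It was 8.98 to 26.5% in leukaemia BM HSC, 3.44 to 24.3% in CNS HSC and 0.454 to 8.71% in the other leukaemia groups. A single gene entry, Gm10800, also differed widely in its share of all counts. Among controls, the LK libraries held least of it (3.01 to 8.53%). Its share was larger for LMPP (17.4 to 28.2%) and HSC (18.7 to 23.4%). In leukaemia it was largest in CNS HSC replicates 4 (28.8%) and 2 (21.8%), then in BM HSC replicate 4 (14.5%). The part of Gm10800 in the differences below was not tested. The sort markers followed the gates in controls: Ly6a, the gene of Sca-1, was at 20.1 to 23.5 CPM in HSC, 13.8 to 25.2 CPM in LMPP and 1.94 to 4.22 CPM in LK (CPM, counts per mega-count after scaling by trimmed mean of M values, TMM). Flt3 was at 189 to 504 CPM in control LMPP and 27.7 to 52.1 CPM in the other control groups. In leukaemia the LK libraries held 118 to 418 CPM of Flt3 in BM, above control LK. CNS HSC replicate 1 stood apart by its macrophage markers (1713 CPM summed over 6 genes) and microglia markers (1064 CPM over 6 genes). Neutrophil markers, 6 genes, summed to 8930.5 CPM in BM LK replicate 2, 11159.6 CPM in BM LK replicate 3 and 4295 CPM in BM LMPP replicate 1.

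A member was tested where its count passed 3 times the background for its exon length plus 10 counts in at least 4 libraries. There were 79 of 85 members that passed in the leukaemia libraries, 77 in the controls, and 79 in the BM libraries of both. Not passing anywhere were Cox4i2, Cox7b2, Cox8b, Cox8c, Ndufa4l2 and a second identifier to which GENCODE gives the symbol Atp5o, a longer locus with a count of 0 in every library. Ndufb2 and Atp5s did not pass in the control table. Of the 77 that passed in controls, 30 passed only with the LK libraries. The filter favours a higher level in LK for these 30, of which 28 were lower in HSC and 1 higher, so their direction supports nothing. Only 14 were above background in each of the 12 control libraries, among them Atp5a1, Atp5b, Cox4i1, Cox8a, Sdha and Uqcrh. The strand setting of the counting is not given, and 38 members overlap another annotated gene. Those among the genes named below are Ndufa2, Ndufa4l2, Ndufa9, Ndufa10, Ndufa11, Ndufa13, Ndufb2, Ndufb5, Ndufb11, Ndufs1, Ndufv2, Sdha, Uqcrh, Cox4i1, Cox6c, Atp5a1, Atp5b, Atp5c1, Atp5d, Atp5f1, Atp5g2, Atp5l and Atp5o, whose counts are therefore uncertain. Atp5c1, Atp5k, Atp5l and Uqcrh also have named pseudogenes, 6 in all.

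Levels per exon length, as CPM per kb averaged over all 36 libraries with each table scaled by itself, differed widely within a complex. On this average over separately scaled tables, which ranks no members within a group, Atp5a1, the alpha subunit of ATP synthase, led complex V (101) and Cox8a led complex IV (80.2). Ndufb11, in the membrane arm of complex I, led that complex (40.5), Uqcrh, the hinge protein, led complex III (38.1), and Sdha, the flavoprotein that oxidises succinate, led complex II (31.2). The lowest members above background were Ndufb2 (2.16) in complex I, Atp5s (2.73) in complex V, Cox7a1 (4.16) in complex IV, Sdhc (10.5) in complex II and Uqcrq (17.6) in complex III.

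Summed over all members, nuclear transcripts of oxidative phosphorylation were lowest in control HSC and control LMPP. Control HSC held 1818, 1768, 1737 and 1603 CPM in replicates 1 to 4, control LMPP 1718, 1916, 1912 and 2374 CPM, and control LK 4790.0, 4329.7, 4249.8 and 4632 CPM. Every control LK library was thus above every HSC and LMPP library of the controls, while HSC and LMPP overlapped. LK held 2.60 times the mean of HSC and 2.27 times that of LMPP. In bulk libraries, fewer cells with these transcripts and less transcript per cell cannot be told apart. With the background of each library taken off, the means were 1250.3 CPM for control HSC, 1524 CPM for LMPP and 4381 CPM for LK.

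In leukaemia the same sum differed less between cell types. BM HSC held 3516, 3177, 3116 and 2493 CPM, BM LMPP 3893 to 4235 CPM and BM LK 4049 to 4709 CPM. BM HSC lay below the other BM types in all 4 libraries, and BM LMPP and BM LK overlapped. In CNS, HSC libraries spread most widely, with 4218, 1801, 2709.6 and 2849.6 CPM, while LMPP held 3461 to 4731 CPM and LK 3948 to 5098 CPM. The highest of these CNS HSC libraries, replicate 1, is the one rich in macrophage markers and has 3.44% background, and the lowest, replicate 2, has 24.3%. The ratio of CNS to BM means was 0.94 in HSC, 1.05 in LMPP and 1.02 in LK.

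**Figure D1:**
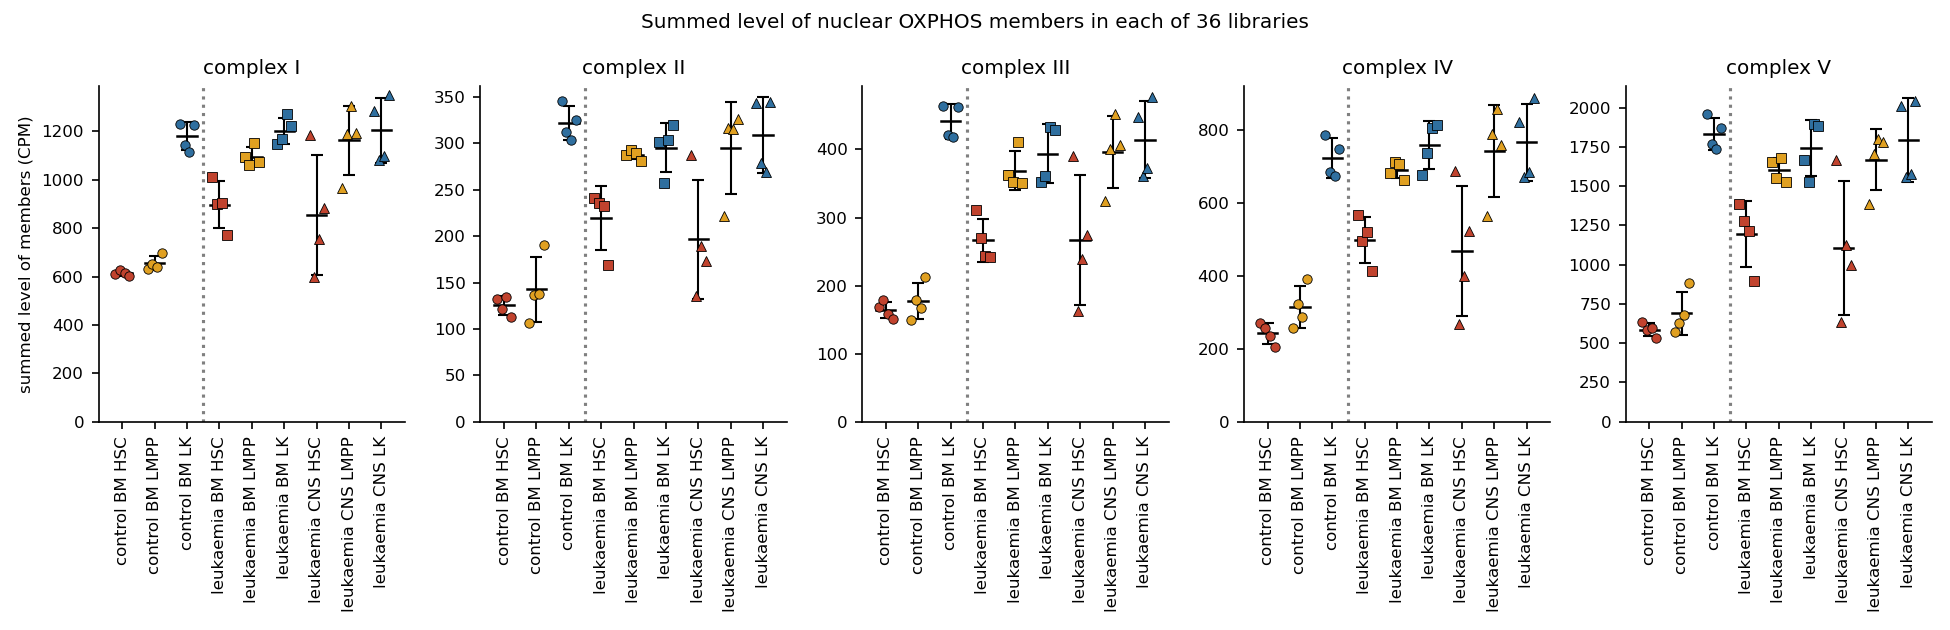
Summed level of the members of each complex (CPM, y axis) in each of the 36 libraries, grouped by cell type, tissue and disease on the x axis; points are libraries and bars mean ± SD (n = 4 per group), and a dotted line parts the tables, which were scaled separately. In every complex the control HSC and LMPP libraries sit below the control LK libraries.

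The share of each complex in the sum moved with the groups. Complex I made up 35.4% of the sum in control HSC and 26.2% in control LK, and complex V 33.9% and 40.8%. In leukaemia BM HSC the shares were 29.2% for complex I and 38.8% for complex V, and in leukaemia BM LK they were 27.4% and 39.7%. Over libraries, a higher background went with a lower sum, and the part of background in the sum's differences was not tested.

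**Figure D2:**
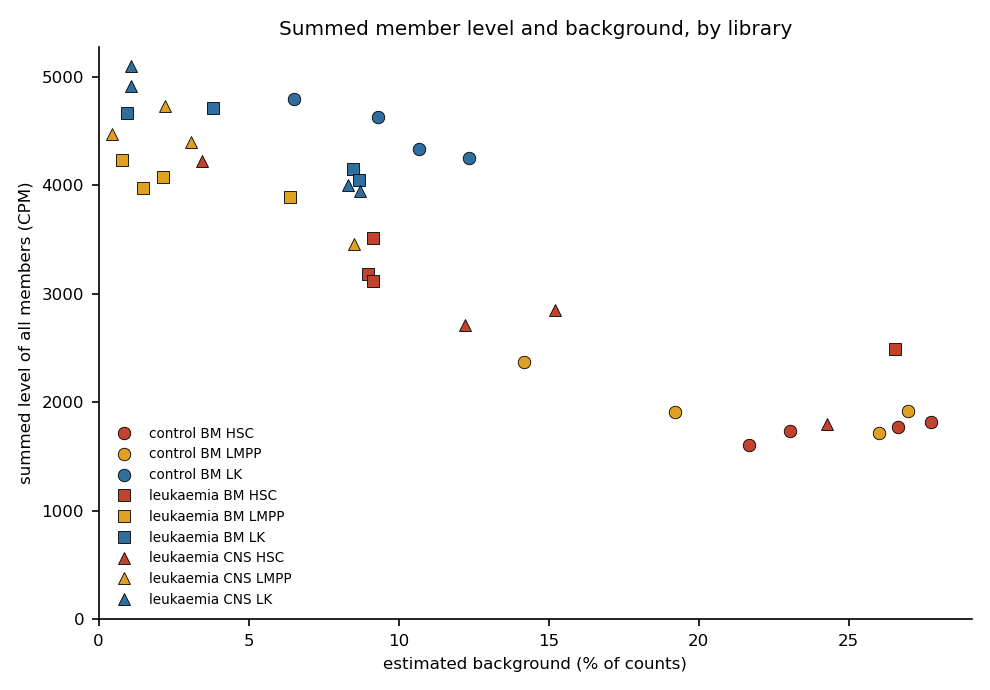
Summed level of all members (CPM, y axis) against the share of counts that a uniform background would bring (%, x axis), each point a library, coloured by group. Control HSC and LMPP libraries lie at the lower right, from 14.2 to 27.7% background and 1603 to 2374 CPM, and control LK at 6.51 to 12.4% and 4249.8 to 4790.0 CPM.

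The first comparison asked how HSC of control mice differ from LK of the same mice. Nearly every member that could be tested was lower in HSC: 73 of 77 fell against LK and 1 rose (edgeR quasi-likelihood test, Benjamini-Hochberg adjusted over 11115 genes), where 33.6% of all genes tested were lower, 36.7% higher and 70.3% called in either direction. The median member differed by -1.31 on the log2 scale, a fold of 2.48, beside 0.03 for all genes. The HSC and LK libraries did not overlap for 71 members, a separation that 33.6% of all genes showed in that direction. By complex, 32 of 34 members of complex I were lower (median -1.05), 4 of 4 of complex II (-1.29), 8 of 8 of complex III (-1.35), 12 of 14 of complex IV (-1.69) and 17 of 17 of complex V (-1.44). Not called were Ndufa7, Ndufv3 and Cox6b2. Of the 47 members above background without help of LK libraries 45 were lower, as were all 14 above background in every control library. Cells called LK held more erythroid marker RNA (366 to 490.3 CPM over 6 genes, beside 69.9 to 84.4 CPM in HSC) and less of 5 stem cell markers (108 to 128 CPM beside 452 to 544 CPM). Markers of neurons (125 to 147 CPM in HSC, 20.8 to 41.3 CPM in LK), astrocytes, B cells and T cells also moved with the comparison, and their part, like that of background, was not tested.

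The size of this difference changed with the handling of background and the scaling, while the direction of the median held. Each filter also changes the genes over which libraries are scaled, and the parts of filter and scaling were not told apart. Without a filter on background the median member was at -2.84, beside 0.31 for all genes, and with each library's background taken off it was at -1.73. With a filter of 10 times the background, chosen after seeing the data, 67 members were tested, the median was -0.55, and 38 were lower and 3 higher. Called or not, 12 of these 67 had a positive difference, beside 1 of 77 with the first filter. In either direction 41 of the 67 were called, a share like that of all genes (2388 of 3894). Scaling by the total counts of the genes tested in place of TMM gave -1.72, with all genes at -0.39.

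In complex I, Ndufv2, an iron-sulphur subunit of the module that takes electrons from NADH, was at 19.2, 16.7, 17.2 and 16.8 CPM in control HSC and 52.4, 59.7, 58.3 and 62.4 CPM in control LK. The 4 HSC libraries lie close together and far below all LK libraries, and the log2 difference was -1.73 ± 0.15 (SE; edgeR adjusted p = 2.0e-08). Ndufb10, an accessory subunit of the membrane arm, was at 12.8 to 20.7 CPM in HSC and 58.8 to 67.5 CPM in LK (-1.90 ± 0.20, edgeR adjusted p = 2.0e-07). For Ndufv2 the uniform background would bring 35.6% of the HSC level and 2.65% of the LK level. Neither Ndufv2 nor Ndufb10 was above background in every control library. The same holds for Sdhb, Sdhd, Uqcrc1, Uqcr11, Uqcrq, Cox6c, Ndufa4, Atp5f1 and Atp5mpl below, while Sdha, Cox4i1 and Atp5b were above it in all. Which of the former passed only with the LK libraries is not given here, and for any that did the direction supports nothing.

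Complex II oxidises succinate and so also belongs to the tricarboxylic acid cycle. Sdhd, a membrane anchor, was at 18.5, 14.8, 20.5 and 13.3 CPM in control HSC and 48.8, 45.4, 44.2 and 48.9 CPM in LK. Sdha was at 66.1, 56.5, 63.6 and 54.7 CPM in HSC and 199.6, 174, 168 and 181.6 CPM in LK. Neither gene's groups overlap, with log2 differences of -1.45 ± 0.15 for Sdhd and -1.58 ± 0.17 for Sdha (edgeR adjusted p = 1.8e-07 and 2.9e-07). The iron-sulphur subunit gene Sdhb differed by -1.13 ± 0.15.

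In complex III, Uqcrc1, a core protein, was at 54.8, 56.7, 54.7 and 52.3 CPM in control HSC and 155, 129, 127 and 152 CPM in LK, a fold of 2.57 (edgeR adjusted p = 3.1e-08). Uqcr11, a small accessory subunit, was at 11.1, 11.4, 8.49 and 6.41 CPM in HSC and 44.8, 35.5, 36.7 and 36.5 CPM in LK. Its fold of 3.97 was the largest of complex III, and no HSC library came near an LK library (-1.99 ± 0.19, edgeR adjusted p = 6.4e-08). The small subunit gene Uqcrq differed by -1.80 ± 0.18.

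Complex IV held the member with the smallest p and the only member that rose. Cox6c, a small nuclear subunit, was at 32.5, 29.6, 28.4 and 23.7 CPM in control HSC and 118, 94.9, 90.8 and 94.8 CPM in LK (-1.78 ± 0.14, edgeR adjusted p = 8.0e-09). Ndufa4 was at 9.86 to 11.9 CPM in HSC and 40.9 to 47.1 CPM in LK (-1.95 ± 0.16), and Cox4i1, the common form of the regulatory subunit 4, at 22.2 to 31.5 and 89.1 to 98.7 CPM (-1.73 ± 0.16). All 3 genes separated the groups fully. Cox7a1, the form of subunit 7a known from heart and skeletal muscle, went the other way: it was at 3.77, 5.31, 7.30 and 10.4 CPM in HSC and 1.46, 1.15, 2.32 and 1.85 CPM in LK. It rose by 1.89 ± 0.42 (edgeR adjusted p = 0.00055) at a low level, of which background would bring 23.2% in HSC and 22.7% in LK. Cox7a1 is among the 30 members that passed the filter only with the LK libraries, and without the background filter 0 members were called higher in HSC.

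In complex V, Atp5b, the catalytic beta subunit, was at 110, 115, 105 and 102 CPM in control HSC and 552, 484, 495 and 518 CPM in LK. This was the largest difference of any member that fell, -2.24 ± 0.20 or a fold of 4.74 (edgeR adjusted p = 3.7e-08), and background would bring only 11.4% of the HSC level. Atp5f1, the b subunit of the stalk, was at 29.6 to 31.6 CPM in HSC and 88.7 to 98.7 CPM in LK (-1.59 ± 0.14, edgeR adjusted p = 2.1e-08). Atp5mpl, a small subunit of the membrane part, was at 8.38 to 17.2 and 49.9 to 61.0 CPM (-1.90 ± 0.18). Atpif1, the inhibitor of ATP synthase, falls outside the rule and was at 26.2, 31.5, 28.4 and 26.6 CPM in HSC and 165, 116, 148 and 154 CPM in LK (-2.36 ± 0.16, edgeR adjusted p = 2.1e-09).

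LMPP of control mice were also lower than LK in these genes. Against LK, 73 of 77 members were lower and 0 higher, where 31.6% of all genes tested were lower, 34.6% higher and 66.2% called. The median was -1.11, a fold of 2.16, and 69 members separated the groups with LMPP lower, as 28.5% of genes did. Complex I had 32 of 34 lower (median -0.91), complex II 4 of 4 (-1.05), complex III 8 of 8 (-1.33), complex IV 12 of 14 (-1.38) and complex V 17 of 17 (-1.17). Of these members 72 were also lower in HSC, a count for which both comparisons use the same LK libraries. Atp5b was at 100, 115, 147 and 210 CPM in LMPP, where replicate 4 is the highest and still far below LK (-1.84 ± 0.20, edgeR adjusted p = 4.0e-07). Ndufv1, which binds NADH, was at 26.7, 31.5, 26.6 and 38.4 CPM in LMPP and 67.1, 73.1, 65.9 and 69.1 CPM in LK (-1.15 ± 0.12), and Sdhd at 12.8 to 19.1 CPM in LMPP (-1.55 ± 0.15). Uqcrc1 differed by -1.41 ± 0.12, Cox6c by -1.57 ± 0.13, Atp5k by -1.96 ± 0.19 and Atp5h by -1.34 ± 0.13. The median was -2.56 without the background filter, -0.42 with the stricter filter (37 lower and 1 higher) and -1.69 with total counts, where all genes were at -0.56. The stricter filter tested 67 members and called 2033 of 3894 genes in either direction. The counts by complex again hold the 30 members that passed only with the LK libraries. Of the 47 members above background without help of LK libraries 44 were lower in LMPP (median -1.16). Of the 14 above background in every control library 13 were lower (median -1.09). Atp5b and Atp5h are among these 14, and Ndufv1, Sdhd, Uqcrc1, Cox6c and Atp5k are not. Erythroid markers summed to 56.6 to 96.9 CPM in LMPP, beside 366 to 490.3 CPM in LK. Markers of neurons (84.7 to 165 CPM in LMPP, 20.8 to 41.3 CPM in LK) and astrocytes (59.4 to 151 CPM, 17.9 to 35.9 CPM) moved with the comparison too, as did background (14.2 to 27.0% and 6.51 to 12.4%), and their part was not tested.

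Between HSC and LMPP of controls 2 of 77 members were called, both lower in HSC, where 1.74% of all genes were lower, 0.594% higher and 2.33% called. Cox7a2l, a relative of Cox7a known for joining complexes III and IV into supercomplexes, was at 28.6, 35.5, 28.6 and 23.2 CPM in HSC and 41.8, 50.3, 47.5 and 69.3 CPM in LMPP (-0.84 ± 0.15, edgeR adjusted p = 0.0060). In LK it was at 52.0 to 58.5 CPM, so for this gene LMPP overlapped LK and not HSC (LMPP against LK -0.06 ± 0.14, edgeR adjusted p = 0.72). Ndufa4 was at 16.9 to 27.7 CPM in LMPP, between HSC and LK, and differed from HSC by -0.93 ± 0.17 (edgeR adjusted p = 0.0061). The median of the members was -0.17. With total count scaling or without the background filter 0 members were called by edgeR (4 and 16 with an unadjusted p below 0.05), DESeq2 called 3, and leaving out control LMPP replicate 1 gave 6.

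**Figure D3:**
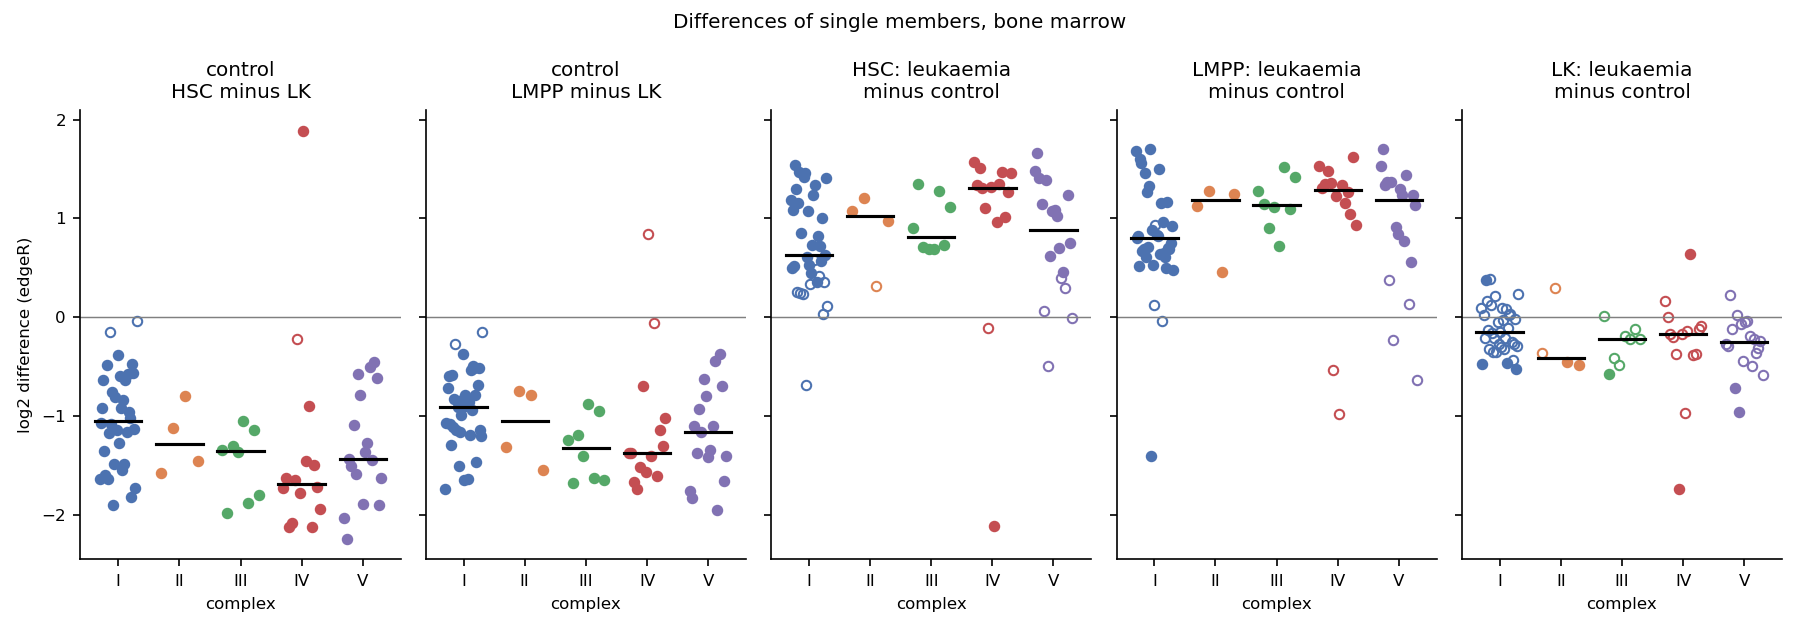
Log2 difference (y axis) of each member, in columns by complex, for control HSC minus LK, control LMPP minus LK, and leukaemia minus control BM in HSC, LMPP and LK; filled points have an edgeR adjusted p below 0.05, open points do not, and bars are medians. The control panels lie below 0 in all complexes with the 1 exception of Cox7a1, the HSC and LMPP panels of leukaemia mostly above 0, and the LK panel close to 0.

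The next comparison set leukaemia against control within each BM cell type, with the 24 BM libraries of both tables fitted together. In HSC 61 of 79 members were higher in leukaemia and 1 lower, where 27.5% of the 15232 genes tested were higher, 20.4% lower and 47.9% called. The median was 0.97. Complex I had 25 of 35 higher (median 0.63), complex II 3 of 4 (1.03), complex III 8 of 8 (0.81), complex IV 12 of 14 (1.31) and complex V 13 of 18 (0.89). In LMPP 69 members were higher and 1 lower, where 32.8% of genes were higher, 31.9% lower and 64.7% called, with a median of 1.04. Complex I had 31 of 35 higher (0.80), complex II 4 of 4 (1.19), complex III 8 of 8 (1.13), complex IV 12 of 14 (1.29) and complex V 14 of 18 (1.19). There were 58 members higher in both cell types. On this joint scale the summed level was 1.97 times as high in leukaemia HSC as in control HSC and 2.15 times in LMPP.

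LK did not share this rise. There, 2 members were higher and 9 lower in leukaemia, where 9.99% of genes were higher, 7.1% lower and 17.1% called, and the median was -0.21. The summed level in leukaemia LK was 0.879 times that of control LK. The median turned to 0.15, with no member called, when the background filter was left out, and with the stricter filter it was -0.30. With total count scaling 0 were higher and 8 lower. In HSC the median was 2.07 without the filter and 0.64 with the stricter one, which called 41 of 76 members and 4787 of 10266 genes. In LMPP it was 2.55 without the filter, beside -1.10 for all genes, and 0.66 with the stricter one, which called 47 members and 5341 of 10266 genes. With each library's background taken off, it was 1.40 in HSC and 1.45 in LMPP. Leaving out the mice of CNS HSC replicate 1 and BM LMPP replicate 3 gave 55 called members in HSC, 66 in LMPP and 12 in LK. Leaving out control LK replicate 1, 2 or 4 gave 6, 6 and 5 called members in LK, and leaving out leukaemia LK replicate 1, 2 or 3 gave 7, 5 and 7. Neutrophil markers summed to 431 to 1384 CPM in leukaemia BM HSC and 71.8 to 103 CPM in control HSC, while background was 8.98 to 26.5% and 21.7 to 27.7%. In LMPP background was 0.789 to 6.37% in leukaemia and 14.2 to 27.0% in control, and neuron markers summed to 6.603 to 20.3 CPM and 84.7 to 165 CPM, each table scaled by itself. In LK neutrophil markers summed to 559 to 11159.6 CPM in leukaemia and 19.6 to 30.7 CPM in control, and erythroid markers to 39.1 to 171 CPM and 366 to 490.3 CPM. The part of these markers and of background was not tested.

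An interaction term asked whether the disease difference was the same in the 3 cell types, and 61 of 79 members passed, where 30.4% of genes did. All 61 are among those lower in control HSC than in control LK, and the comparisons share those control libraries. Sdhd had the smallest p (edgeR adjusted p = 6.6e-05). On the joint scale it was at 34.2, 28.5, 32.1 and 28.7 CPM in leukaemia HSC and 17.0, 13.7, 19.2 and 12.02 CPM in control HSC, at 35.2 to 38.8 and 11.3 to 19.8 CPM in LMPP, and at 40.9, 28.8, 39.2 and 40.7 CPM in leukaemia LK and 58.0, 50.3, 46.7 and 55.1 CPM in control LK. It was thus higher in leukaemia in HSC (0.98 ± 0.17) and LMPP (1.25 ± 0.17) and lower in LK (-0.49 ± 0.16, edgeR adjusted p = 0.034), without overlap in any of the 3 types. Uqcr11 had the same pattern, with 1.35 ± 0.20, 1.15 ± 0.20 and -0.58 ± 0.19 (interaction, edgeR adjusted p = 9.1e-05). Ndufa13, an accessory subunit of complex I also studied as a cell death regulator, was next (interaction, edgeR adjusted p = 0.00014) and was higher in all 3 types. It was at 45.7, 40.6, 42.2 and 35.0 CPM in leukaemia HSC and 15.2, 13.5, 11.5 and 16.5 CPM in control HSC (1.54 ± 0.14), and differed by 1.60 ± 0.14 in LMPP and 0.37 ± 0.13 in LK.

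Among the largest rises was Atp5b, at 381, 368, 307 and 202 CPM in leukaemia HSC and 101, 107, 97.9 and 91.7 CPM in control HSC (1.66 ± 0.23, edgeR adjusted p = 8.7e-06). It was at 427 to 497 and 88.5 to 218 CPM in LMPP (1.70 ± 0.23), and at 389 to 511 and 524 to 655 CPM in LK (-0.29 ± 0.22, edgeR adjusted p = 0.40). Leukaemia HSC replicate 4, the lowest, has the highest background of its group. In complex IV Cox4i1 was at 89.0, 68.5, 87.6 and 64.4 CPM in leukaemia HSC and 28.9, 25.8, 28.1 and 20.0 CPM in control HSC (1.58 ± 0.20). Cox5b, a subunit on the matrix side, was at 57.1 to 73.2 and 15.1 to 30.7 CPM (1.51 ± 0.23). Both overlapped between leukaemia and control in LK. Of complex I, Ndufb11 was higher by 1.46 ± 0.20 in HSC and 1.70 ± 0.20 in LMPP, and Ndufa6, a small accessory subunit, by 1.47 ± 0.22 and 1.46 ± 0.21. Sdhb was also higher, by 1.28 ± 0.16 in LMPP.

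The members lower in leukaemia were few. Cox7a1, which had been the exception among control HSC, was at 0.993, 1.36, 0.740 and 2.55 CPM in leukaemia HSC and 3.47, 4.92, 6.84 and 9.35 CPM in control HSC on the joint scale (-2.12 ± 0.50, edgeR adjusted p = 0.0018). Its groups do not overlap, at levels of a few CPM. Without the background filter 0 members were called lower in leukaemia HSC. Ndufb2 was lower in LMPP (-1.41 ± 0.30, edgeR adjusted p = 0.00032), but background would bring 67.3% of its control LMPP level, and its difference turned to 0.21 without the background filter. In LK, Atp5g1 was at 26.0, 30.8, 29.3 and 26.2 CPM in leukaemia and 62.2, 55.8, 43.7 and 56.9 CPM in control (-0.96 ± 0.21, edgeR adjusted p = 0.0019). Cox6b2, known from testis, differed by -1.74 ± 0.42, Ndufs1, the largest iron-sulphur subunit of complex I, by -0.46 ± 0.12, Ndufv1 by -0.52 ± 0.16 and Ndufa10 by -0.47 ± 0.15. Sdhc, the other membrane anchor of complex II, differed by -0.46 ± 0.15, and Atp5e, the epsilon subunit, by -0.72 ± 0.20. None of these LK groups overlap, a separation whose share among all genes is not given here for leukaemia against control. The LK rises of Ndufa13 and of Cox7a2l (0.64 ± 0.22) were not called with the replicate number as a block (edgeR adjusted p = 0.062 and 0.072). That block joins libraries of different mice here.

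**Figure D4:**
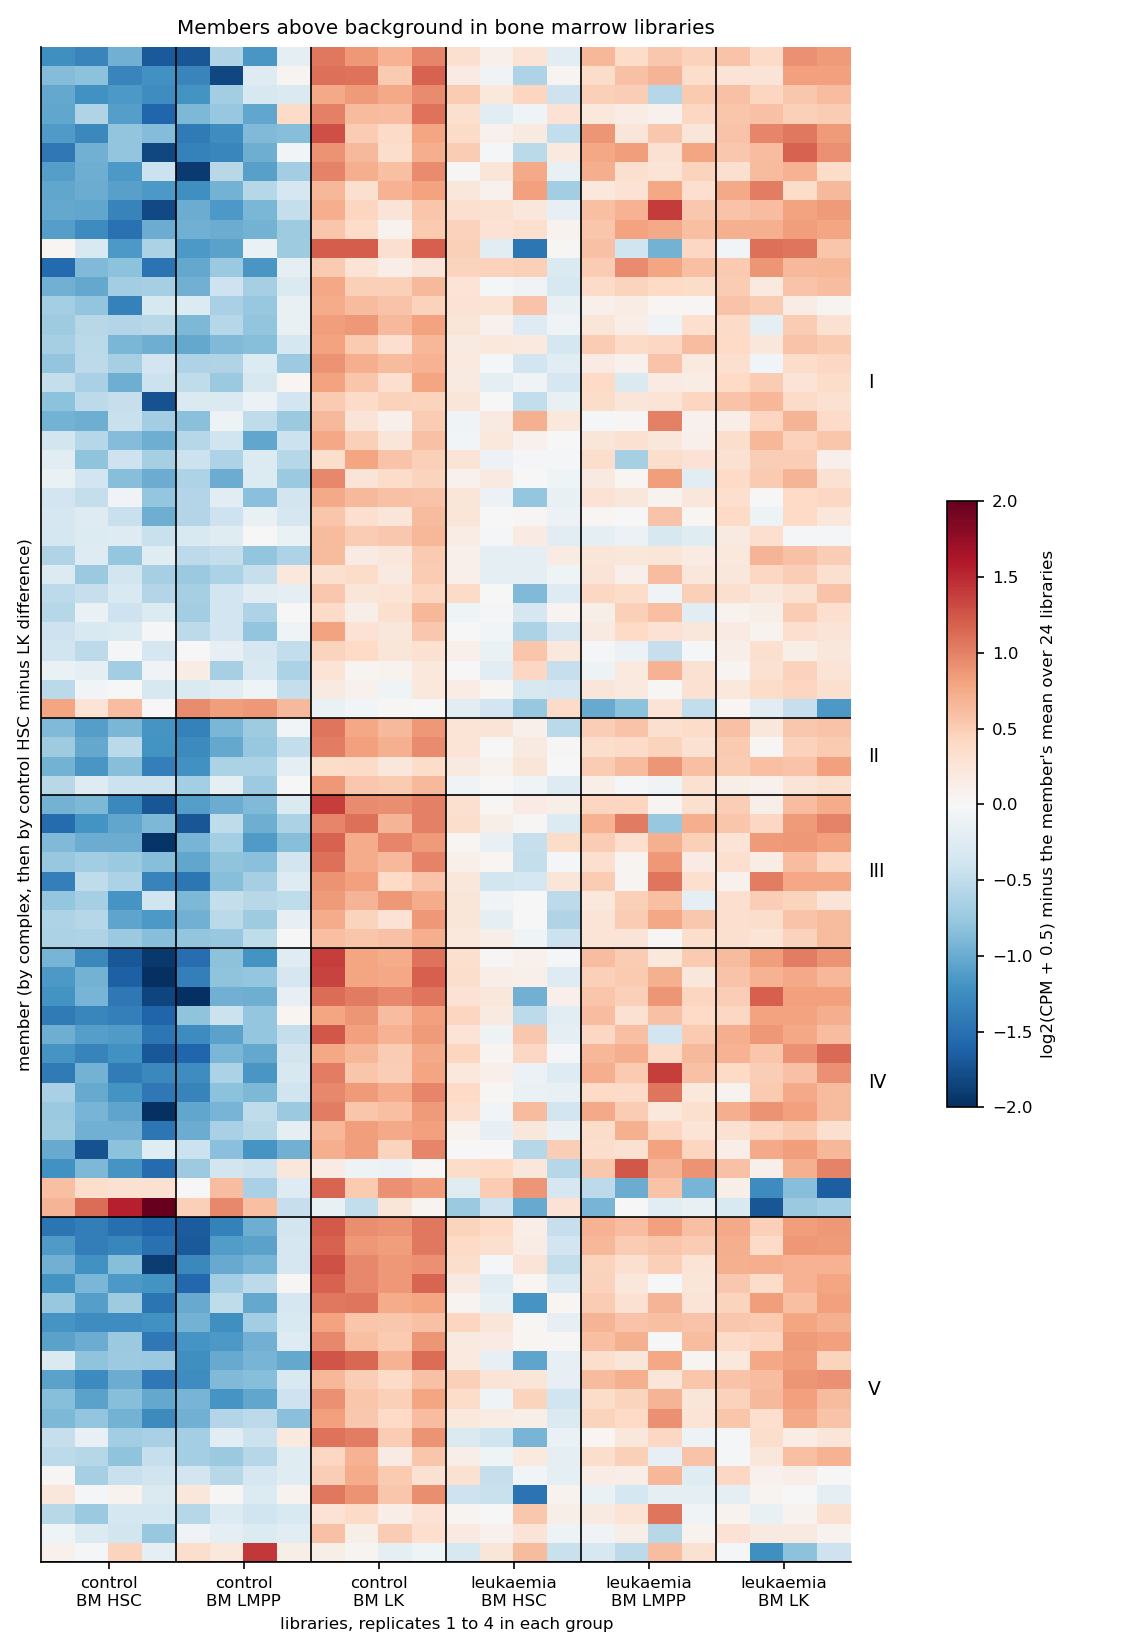
The 79 members above background (rows, ordered by complex) in the 24 BM libraries (columns, by group), as log2(CPM + 0.5) minus the mean of the row on the joint scale. The 8 columns of control HSC and LMPP are low for most rows, and the control LK and leukaemia columns are higher.

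Within leukaemia, differences between cell types were smaller than in controls. Of BM, HSC against LK had 0 of 79 members called by edgeR, where 0.0316% of 15812 genes were called, although 49 members had an unadjusted p below 0.05 and DESeq2 called 1. The median was -0.49, and 44 members separated the groups with HSC lower, as 6.62% of all genes did. Leaving out the mice of CNS HSC replicate 1 and BM LMPP replicate 3 gave 4 called members. Atp5o, the subunit that links the catalytic head to the stalk, had the smallest p, at 20.7, 18.1, 8.73 and 20.3 CPM in HSC and 27.8, 36.6, 31.3 and 36.4 CPM in LK (-0.96 ± 0.23, edgeR adjusted p = 0.11). BM HSC against LMPP also had 0 called by edgeR (0.0696% of genes, 0.0379% higher and 0.0316% lower, 22 members with an unadjusted p below 0.05, 0 by DESeq2, median -0.38). BM LMPP against LK had 0 called by edgeR (0.00632% of genes, 2 with an unadjusted p below 0.05, 0 by DESeq2, median -0.13).

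In CNS 17 of 79 members were lower in HSC than in LK and 0 higher, where 5.1% of genes were lower, 2.76% higher and 7.86% called (median -0.56). Against LMPP 19 were lower and 0 higher, where 7.5% of genes were lower, 5.55% higher and 13.1% called (median -0.50). These sets share 10 members and the HSC libraries. Both counts rested on single libraries: without CNS HSC replicate 1 they were 56 and 55, without replicate 2 they were 0 and 1, without replicate 3 both were 9, and without replicate 4 they were 2 and 5. The count against LK was 6 without CNS LK replicate 1 or 3 and 0 without replicate 4, and that against LMPP was 32, 3, 1 and 12 without CNS LMPP replicates 1 to 4. With the replicate number as a block, which here joins libraries of different mice, both were 0, where 0 and 51 of all 15812 genes were called. DESeq2 called 35 and 31 members, where it called 3188 and 3977 genes, and 3 of the 31 were higher in HSC. Without the mice of CNS HSC replicate 1 and BM LMPP replicate 3 the counts were 56 and 43, of which 1 of the 43 was higher in HSC. There 3594 and 2908 of 15466 genes were called. CNS HSC replicate 4 also stood apart, with erythroid markers at 1085 CPM (91.9 to 124 CPM in the others) and neutrophil markers at 1328 CPM (28.2 to 75.8 CPM), whose part was not tested. Uqcrh was at 48.7, 26.3, 28.4 and 29.2 CPM in CNS HSC and 62.7, 58.5, 62.0 and 72.4 CPM in CNS LK (-0.94 ± 0.21, edgeR adjusted p = 0.020, or 0.095 with the replicate number as a block). Sdhc was at 33.5, 23.9, 25.0 and 23.1 CPM in HSC and 43.4, 38.2, 36.8 and 47.4 CPM in LK (-0.65 ± 0.14, edgeR adjusted p = 0.018; 0.086 with the block). In each of these genes HSC replicate 1 is the highest HSC library and still below all LK libraries. Ndufb11, with 41.7, 14.0, 20.5 and 23.0 CPM in HSC and 35.2, 47.1, 59.9 and 58.7 CPM in LMPP, shows replicate 1 within the LMPP range (-1.02 ± 0.25, edgeR adjusted p = 0.016; 0.084 with the block). Cox6b1, Cox8a, Ndufa8, Atp5d, Atp5g2, Ndufa2 and Ndufv3 were among the 10 members called in both comparisons. CNS LMPP against LK had 0 members called by edgeR (0.354% of genes, 0.196% higher and 0.158% lower, 4 with an unadjusted p below 0.05, 0 by DESeq2, median -0.10).

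Between CNS and BM the members did not differ detectably. Over all cell types 0 of 79 were called by edgeR, as was 0% of all 15812 genes, and 0 had an unadjusted p below 0.05. The median CNS minus BM difference was 0.01, and single members ranged from -0.44 to 0.33. With the mouse as a block, 0 members were called, 2 had an unadjusted p below 0.05, and 398 genes of the table were called. DESeq2 called 0 members and 146 genes. Ndufa9, an accessory subunit of complex I, had the smallest p (0.22 ± 0.11, edgeR adjusted p = 0.55), before Ndufa11 (-0.26 ± 0.16) and Ndufb11 (-0.22 ± 0.14). Within cell types edgeR called 0 in HSC, LMPP and LK and 0 for the interaction of niche with cell type, with 0, 1, 0 and 0 at an unadjusted p below 0.05 and 0 in each by DESeq2. In LMPP Cox6b2 was at 4.22, 2.85, 9.70 and 3.07 CPM in BM and 2.20, 2.45, 2.68 and 0.407 CPM in CNS (-1.24 ± 0.54, edgeR adjusted p = 0.53). In HSC Ndufb11 differed by -0.46 ± 0.25 and in LK Ndufv3 by -0.20 ± 0.14, neither called. With total count scaling the median over all types was -0.17, the same as that of all genes.

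Several subunits exist in forms encoded by different genes, and levels per kb let these be compared within a group. The c ring of ATP synthase is encoded by Atp5g1, Atp5g2 and Atp5g3, which yield the same mature peptide. In control LK Atp5g3 was highest (35.1 ± 2.41 CPM per kb, SD, n = 4), then Atp5g2 (29.6 ± 4.47) and Atp5g1 (9.90 ± 1.02). In control HSC the order was Atp5g2 (17.2 ± 1.96), Atp5g3 (9.38 ± 0.882) and Atp5g1 (6.56 ± 0.944, of which background would bring 44.2%). The log2 difference of HSC from LK was -1.90 ± 0.19 for Atp5g3 and -0.79 ± 0.14 for Atp5g2, with -0.58 ± 0.14 for Atp5g1, each called. In leukaemia against control, Atp5g3 and Atp5g2 were higher in HSC (1.07 ± 0.21 and 0.62 ± 0.18) and in LMPP (0.84 ± 0.21 and 0.91 ± 0.18). Atp5g1 was not: it differed by -0.49 ± 0.21 in HSC (edgeR adjusted p = 0.057) and -0.24 ± 0.21 in LMPP (edgeR adjusted p = 0.34). With the replicate number as a block, which here joins libraries of different mice, its HSC difference had an edgeR adjusted p = 0.041.

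Of cytochrome c oxidase, Cox4i1 was at 17.99 ± 2.63 CPM per kb in control HSC and 60.9 ± 2.57 in control LK, and its hypoxia-linked counterpart Cox4i2 at 6.00 ± 1.68 and 1.75 ± 0.450, of which background would bring 48.3% and 41.1%. Cox8a was at 30.4 ± 5.09 in control HSC and 100.2 ± 12.6 in control LK, while Cox8b and Cox8c, known from muscle and testis, were at most at 8.26 in any group and did not pass the background rule. Cox6b1 was at 18.1 ± 4.42 CPM per kb in control HSC and 58.4 ± 2.5004 in control LK, and differed by -1.65 ± 0.17 on the log2 scale. Its testis counterpart Cox6b2 differed by -0.22 ± 0.27 (edgeR adjusted p = 0.48). Cox7a2l was the highest of its relatives in leukaemia LMPP, with 75.0 ± 15.8 CPM per kb in BM and 91.7 ± 24.7 in CNS, beside 24.2 ± 4.48 and 26.3 ± 6.22 for Cox7a2 and 2.83 ± 0.926 and 2.55 ± 0.474 for Cox7a1. In control HSC these genes were closer, at 19.6 ± 3.41, 10.2 ± 4.54 and 12.5 ± 5.31. Ndufa4 was at 8.00 ± 0.630 CPM per kb in control HSC and 31.3 ± 2.11 in control LK, and Ndufa4l2, known as a hypoxia response gene, at 6.55 ± 1.197 and 1.28 ± 0.568, of which background would bring 44.3% and 56.0%.

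**Figure D5:**
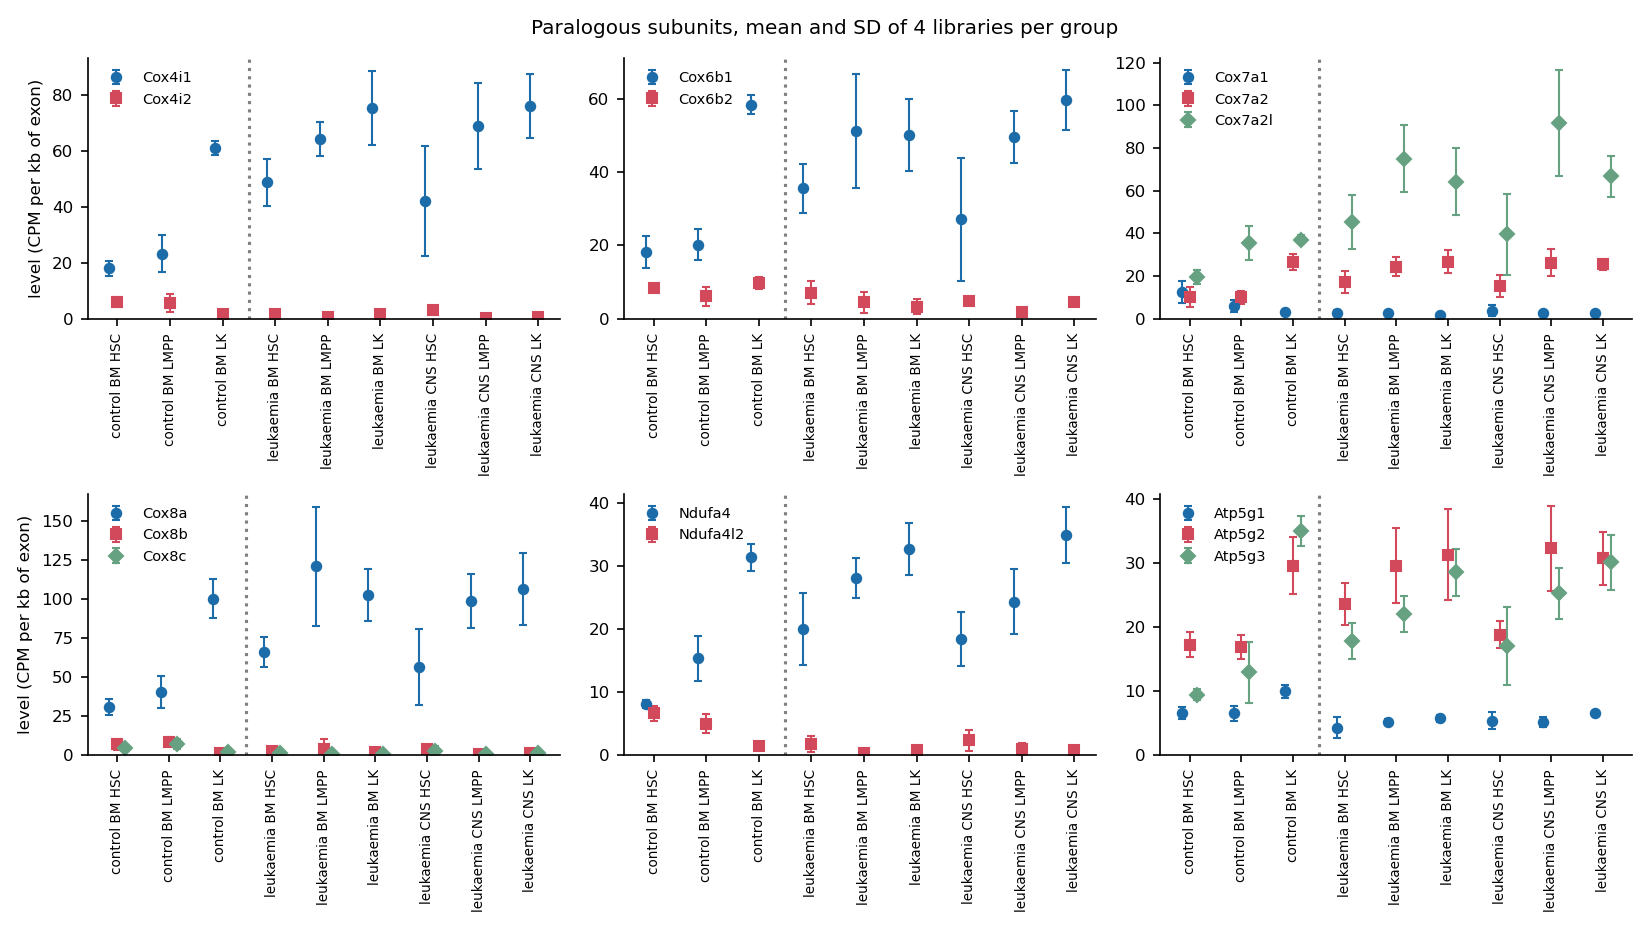
Level per exon length (CPM per kb, y axis, mean ± SD, n = 4) of the genes that encode alternative forms of the same subunit, in each of the 9 groups (x axis), a panel per set. Cox4i1, Cox6b1, Cox8a and Ndufa4 lie above their counterparts in every group, and the mean of Cox7a1 (12.5) is above that of Cox7a2 (10.2) in control HSC and below it in the other groups.

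The 13 mitochondrially encoded mRNAs, scaled by TMM and with no background taken off, did not follow the nuclear members. They summed to 7545 to 9392 CPM in control HSC and 9016 to 10159 CPM in control LK, so the groups overlapped. As a share of total counts, all genes of the mitochondrial chromosome together took 1.37 to 1.91% in control HSC and 4.54 to 5.15% in control LK. Of the 13 mRNAs, 4 were higher in control HSC than in control LK and 4 lower, with a median of -0.24. Of these, mt-Atp8, a membrane subunit of ATP synthase, had the smallest p (-1.62 ± 0.18, edgeR adjusted p = 3.8e-07). The ratio of the nuclear to the mitochondrial sum was, among controls, 0.188 to 0.226 for HSC, 0.155 to 0.264 for LMPP and 0.418 to 0.531 for LK. It was 0.359 to 0.476 in leukaemia BM HSC, 0.368 to 0.498 in BM LMPP and 0.435 to 0.502 in BM LK. In leukaemia HSC against control 3 of these mRNAs were higher and 5 lower, led by mt-Atp8 (1.44 ± 0.24).

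Other genes of the pathway were given by lists, with counts against control LK first, where 33.6% of all genes were lower and 36.7% higher. Of 10 further subunits and carriers, 8 were lower and 1 higher in control HSC (median -1.46), led by Cycs, the gene of cytochrome c (-1.56 ± 0.10, edgeR adjusted p = 1.5e-09). All 16 genes of the tricarboxylic acid cycle were lower (median -1.01), led by Dld, a subunit of its dehydrogenases (-1.51 ± 0.12). Of 23 glycolysis genes 13 were lower and 6 higher (median -0.76), led by the lactate transporter gene Slc16a1 (-1.82 ± 0.11). Of 73 mitochondrial ribosome genes 35 were lower and 1 higher (median -0.40), led by Mrpl12 (-1.92 ± 0.16). Of 81 cytosolic ribosome genes, a family with many near-identical copies, 80 were lower and 1 higher (median -1.62), led by Rpl30 (-1.59 ± 0.15). Assembly factors had 6 of 29 lower and 4 higher (median -0.09), and regulators of mitochondrial biogenesis 5 of 16 lower and 3 higher (median -0.06), shares no greater than those of all genes.

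In leukaemia HSC against control, 27.5% of all genes were higher and 20.4% lower. Of the further subunits and carriers 8 of 10 were higher and 0 lower (median 0.89; Cycs 1.40 ± 0.16), and of the tricarboxylic acid cycle 12 of 16 were higher and 0 lower (median 0.54; Mdh2, a malate dehydrogenase, 1.18 ± 0.19). Glycolysis had 10 of 24 higher and 5 lower (Hk3, a hexokinase, 2.25 ± 0.22), the mitochondrial ribosome 20 of 76 higher, near the share of all genes, and 1 lower (Mrpl18 1.06 ± 0.20), and the cytosolic ribosome 79 of 84 higher and 0 lower (median 1.29; Rps27l 1.62 ± 0.20). Assembly factors had 4 of 38 higher and 4 lower, led by Coa3 (1.69 ± 0.30), and biogenesis regulators 5 of 19 higher and 4 lower, led by the transcription factor gene Yy1 (1.34 ± 0.22). Of the assembly factors a smaller share than of all genes was called in either direction. In LK 9.99% of all genes were higher and 7.1% lower. There the tricarboxylic acid cycle had 0 higher and 4 lower of 16 (Idh3a -0.78 ± 0.13), a greater share lower than of all genes. The cytosolic ribosome had 1 higher and 1 lower of 84, and the other lists are not given here for LK. Atpif1 moved with the members: on the joint fit it was called in HSC, LMPP and LK (log2 difference 1.02 ± 0.22, 1.30 ± 0.22 and -0.92 ± 0.21; edgeR adjusted p = 0.00091, 4.2e-05 and 0.0036), and it was at 31.7 to 67.5 CPM in leukaemia BM HSC and 76.1 to 103 CPM in leukaemia BM LK.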

How the data were processed

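RNA from sorted cells (Quick-RNA Microprep) was made into libraries with the SMARTer stranded total RNA kit (Pico Input, v3), per the labels' protocols. The authors deposited whole read counts per gene in 2 tables of 55414 identifiers (24 leukaemia and 12 control libraries), named as normalised but holding whole numbers of unequal totals, treated here as counts. The submitters' processing notes name DESeq2 and GRCm39, and for the aligner, the counter and strandedness nothing is given in the sources used here. Symbols and exon lengths came from GENCODE vM21 (GRCm38, another build), with 52081 identifiers matched and 3333 not, and promoters from RefSeq. All columns were mapped, leaving 0 out. Members and lists were chosen with earlier results of these data known.

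Background was the count per kb over 1515 sensory receptor genes. Genes above 3 times it plus 10 counts in 4 libraries were tested with edgeR 4.0.16 (quasi-likelihood, TMM) in R 4.3.3, Benjamini-Hochberg adjusted over all genes tested at 0.05, without a block. The groups of a table shared a fit, and disease was tested over the 24 BM libraries of both tables. DESeq2 1.42.0, total count scaling, other filters, a block and leaving out libraries were alternatives, the 10-fold background filter being chosen after seeing the data. In the tests, total count scaling used the summed counts of the genes tested, not of all genes. The block was the mouse for CNS against BM and among controls. For leukaemia cell types and for leukaemia against control it was the replicate number, which there joins libraries of different mice. P-values measure the spread between these mice only. BM and CNS libraries of a leukaemia mouse, and the 3 libraries of a control mouse, come from the same animal per the labels, so the numbers pair them. Their deviations correlated with a median r of 0.26 over 12 leukaemia pairs and -0.02 over 12 control pairs. Named members were, for each comparison, complex and direction, up to 3 called with the smallest p (the 3 smallest where none was called), the highest and lowest per kb, those not above background, forms of the same subunit, and up to 3 per interaction. From lists, the gene with the smallest p was named. Not every member named by the rule is reported here. Cox7a2l, Atp5b and others shown again in later comparisons were repeated after their values were seen.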

Additional observations from a re-analysis of the deposited data

Results flagged for a closer look

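In complex II the summed level of leukaemia BM HSC replicate 4 was 168 CPM, far below the other replicates at 233 to 241 CPM, and this library has 26.5% background. In leukaemia CNS LMPP replicate 1 the same sum was 222 CPM, beside 316 to 326 CPM in the others, with 8.52% background. A sample far from its group was looked for in 54 groups of 4, and chance alone gives about 1 in 20 such groups. The leukaemia minus control difference depended on cell type for 61 members by the interaction test.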

How the results depend on the processing

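Of the log2 differences under alternatives of the members named by the rule, each in the comparison that names it and no other members or comparisons, 3061 kept direction and side of the threshold, 245 lost the call, 4 gained it and 1 turned: Ndufb2 in LMPP of leukaemia against control, to 0.21 without the background filter. The median in LK of leukaemia against control turned to 0.15 without that filter, where 0 members were called. With the stricter filter 41 members were called in control HSC against LK, 38 in control LMPP against LK and 41 in HSC of leukaemia against control, with fewer genes tested. Of all genes, that filter called 2388 and 2033 of 3894 in the control comparisons and 4787 of 10266 in HSC of leukaemia against control. Control HSC against LMPP had 0 called with total count scaling and 0 without the filter. Leukaemia BM HSC against LK had 1 called with DESeq2 and 4 without the 2 doubted mice. CNS HSC against LK had 35 with DESeq2, 0 without the filter, 49 with total counts and 56 without the 2 mice. CNS HSC against LMPP had 31, 0, 30 and 43. In these settings 3188, 0, 1514 and 3594 of all genes were called against LK and 3977, 46, 1722 and 2908 against LMPP. With the mouse as a block, control HSC against LK had 74 called, LMPP against LK 72 and HSC against LMPP 2. For leukaemia cell types and for leukaemia against control the block was the replicate number, which there joins libraries of different mice. With it both CNS counts were 0, leukaemia against control had 63 called in HSC, 70 in LMPP and 9 in LK, and the interaction had 60. Leaving out a library gave 65 to 74 in control HSC against LK, 64 to 73 in LMPP against LK, 2 to 6 in HSC against LMPP, 53 to 64, 64 to 71 and 5 to 12 in leukaemia against control HSC, LMPP and LK, 56 to 65 for the interaction, 0 to 56 in CNS HSC against LK and 1 to 55 against LMPP. In CPM of the total counts of all genes, Gm10800 included, the summed level was 2120.1 in leukaemia BM HSC, 1730.2 in CNS HSC, 2554 in BM LMPP, 2415 in CNS LMPP, 2719.5 in BM LK and 2613 in CNS LK. In controls it was 1056 for HSC, 1151 for LMPP and 3346 for LK. Among these control groups the share of Gm10800 in the totals was lowest for LK. Less background and on the TMM scale the summed level was 1250.3 in control HSC and 1524 in control LMPP. The cause of these shifts was not tested.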

Other observations

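Members were set side by side by promoter motif after their values had been seen. The 6 tested members whose promoter holds TATAAA differed between control HSC and LK by a median of -0.48 (range -0.62 to -0.15), beside -1.35 for 59 members without it. Members with the NRF1 core were at -1.32 (18 members) and those without at -1.14 (47 members). Across members, the log2 difference of control HSC from LK had a Spearman correlation of 0.26 with exon length, and 0.07 once each library's background was taken off. Members share libraries and are not replicates, so these are descriptions only.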
